A study of Mus musculus with 6 samples.

Results

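The endothelin and angiotensin systems were followed through 8 genes, taken as a named list out of the 29385 genes in the heart tables: Edn1, Edn3, Ednra, Ednrb and Ece1 for endothelin, and Agt, Ace and Agtr1a for angiotensin. All 8 were found by symbol and all 8 passed the filter on low counts. Poly(A) RNA was sequenced from 6 mouse heart samples collected 12 months after newborn mice received a vector or vehicle. Every sample was labelled with at least 1 altered allele of Myh6, the gene of the main myosin heavy chain in the adult mouse ventricle. In 2 samples the genotype was Myh6 RH/+ and the agent was vehicle. In 2 samples the genotype was Myh6 RH/RQ, again with vehicle. The remaining 2 samples were Myh6 RH/RQ given AAV-hpCas13d, an adeno-associated virus that carries a form of Cas13d, an RNA-guided enzyme that cuts RNA. No group was labelled wild type and none received the vector on the RH/+ background. The labels spell out neither RH nor RQ, nor the promoter of the vector, nor whether each library is a different animal. The tests therefore speak of the spread between libraries, part of which may be technical.

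Endothelins are short peptides that act on neighbouring cells. Each is cut from a larger precursor, for which Ece1, endothelin-converting enzyme 1, makes the last cleavage. The product of Edn1 is a strong constrictor of vessels and comes mainly from endothelium, while the product of Edn3 is best known for guiding neural crest cells in the embryo. Ednra encodes the A receptor of smooth muscle and heart muscle cells, which prefers the peptides of Edn1 and Edn2, and Ednrb the B receptor, which binds the 3 endothelins alike and clears them from the circulation. In the angiotensin system, renin cuts angiotensinogen, the product of Agt made chiefly by the liver, and angiotensin-converting enzyme, the product of Ace on endothelial cells, trims the fragment to angiotensin II. Agtr1a encodes the main receptor of angiotensin II in rodents, which, like both endothelin receptors, signals through Gq proteins.

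The start regions of Edn3, Ace and Agt are shown because these 3 genes had the largest differences between groups among the 8. Each sequence runs 5′ to 3′ on the gene's strand over 300 bases, from 250 before to 50 after the RefSeq start (GRCm38.p6). Capitals mark matches, on either strand, to the TATA box TATAAA, the CCAAT box, the GC box GGGCGG or the AP-1 site TGANTCA. Of 32851 RefSeq start regions of this length, the TATA box occurred in 13.6%, the CCAAT box in 37.4%, the GC box in 35.7% and the AP-1 site in 7.81%.
Edn3, chr2:174760369-174760668 on the plus strand: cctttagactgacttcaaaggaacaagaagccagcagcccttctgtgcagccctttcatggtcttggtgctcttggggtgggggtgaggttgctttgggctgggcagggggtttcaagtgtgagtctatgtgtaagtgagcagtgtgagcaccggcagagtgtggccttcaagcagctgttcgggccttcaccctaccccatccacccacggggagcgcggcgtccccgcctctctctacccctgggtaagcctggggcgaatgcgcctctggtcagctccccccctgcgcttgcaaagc
Ace, chr11:105967698-105967997 on the plus strand: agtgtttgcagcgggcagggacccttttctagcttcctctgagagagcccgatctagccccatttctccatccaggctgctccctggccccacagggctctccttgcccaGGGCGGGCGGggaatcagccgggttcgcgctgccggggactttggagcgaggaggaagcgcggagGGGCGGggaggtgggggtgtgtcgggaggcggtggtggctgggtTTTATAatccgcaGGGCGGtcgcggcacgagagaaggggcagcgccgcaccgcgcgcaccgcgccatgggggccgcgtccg
Agt, chr8:124569657-124569956 on the minus strand: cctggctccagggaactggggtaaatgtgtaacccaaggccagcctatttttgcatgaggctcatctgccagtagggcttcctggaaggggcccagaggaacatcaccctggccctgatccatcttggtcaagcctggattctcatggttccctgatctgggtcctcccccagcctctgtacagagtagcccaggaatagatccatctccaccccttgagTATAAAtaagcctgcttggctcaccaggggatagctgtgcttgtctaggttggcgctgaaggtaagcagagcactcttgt
These windows differ in the letters searched. Edn3 held none of the 4 motifs. Agt held TATAAA beginning 30 bases before the start. Ace held its match to TATAAA on the opposite strand beginning 31 bases before the start, and GGGCGG at 4 places, 2 of which overlap. A match in letters is a description and no evidence of binding. RefSeq lists another start for Ace inside the gene, and gene-level counts do not separate transcripts from the 2 starts.

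The libraries held between 36269261 and 51017058 reads, recovered from deposited values in CPM, the counts scaled to a common library total. A gene with 0 reads is limited, by a count of 3, to between 0.0588 and 0.0827 CPM, which covers counting error only. Heart muscle markers were abundant, and all 10 listed, among them Myh6, Actc1 and Tnnt2, were tested. They summed to 73695 to 77872 CPM in RH/+ vehicle, 66293 to 69985 CPM in RH/RQ vehicle and 70627 to 71560 CPM in treated hearts. None was called by limma in any comparison, while in RH/RQ vehicle against RH/+ vehicle 2 had an unadjusted p under 0.05, edgeR called 1 lower and DESeq2 5 lower. DESeq2 also called 2 of the 10 lower in treated against RH/+ vehicle, where edgeR called 0. In these comparisons edgeR called 2.34% and 0.97% of all genes lower, and the shares for DESeq2 were not counted. Xist, the RNA of the inactive X chromosome in females, had levels of 280 and 265 CPM in RH/+ vehicle, 0.274 and 0.0516 CPM in RH/RQ vehicle and 299 and 326 CPM in treated samples, whereas Ddx3y on the Y chromosome had 85.2 CPM in each RH/RQ vehicle library and 0 reads in the other 4. The libraries of RH/RQ vehicle thus had a male pattern and the other 4 a female one. Genotype, or treatment, cannot be told apart from sex in either comparison with the RH/RQ vehicle group, and only treated RH/RQ against RH/+ vehicle compares libraries of the same pattern.

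In RH/RQ vehicle hearts Edn3, Ednrb and Ace rose above RH/+ vehicle and none of the 8 genes fell. Tested by limma on log2(CPM + 1) across 16804 genes, 3.48% of all genes rose, 1.51% fell and 4.99% changed at an adjusted p under 0.05, against 3 of the 8 genes. Between treated and vehicle RH/RQ hearts 1 of the 8, Agtr1a, rose and 0 fell, beside 1.22% of all genes higher, 0.827% lower and 2.05% changed. In the same comparison edgeR and DESeq2 on recovered reads also called Edn3 and Agt lower, that is 2 of 8 beside 1.19% and 1.15% of all genes. Treated RH/RQ hearts had more Edn3 and Ace and less Agt than RH/+ vehicle hearts. That makes 2 of 8 higher and 1 of 8 lower, beside 2.33% and 0.53% of all genes, 2.86% in all. The balance of higher and lower calls depended on scaling: with TMM factors, edgeR called 3.12% of genes higher and 2.34% lower (5.46% in all), then 1.08% and 1.19% (2.27%), then 1.48% and 0.97% (2.45%) in the same 3 comparisons. The median log2 difference of all genes was 0.04, 0.04 and 0.08 with limma and 0, -0.004 and 0 with edgeR. With no filter on low genes, Edn3 in RH/RQ vehicle against RH/+ vehicle was the only call left among the 8. Each comparison shares a group with each other one, so they do not stand as separate evidence. The genes were chosen with results of these data known.

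**Figure D1:**
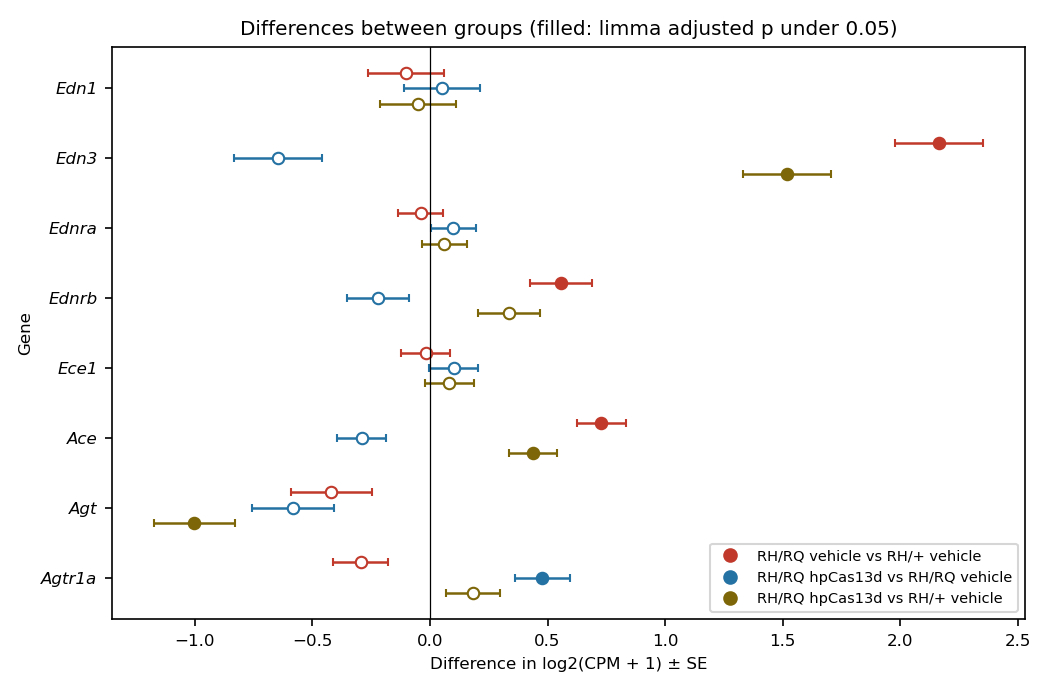
Difference between groups in log2(CPM + 1) for each of the 8 genes (x axis, with standard error), by comparison (colour). Filled points have a limma adjusted p under 0.05. Edn3 lies farthest to the right, at 2.17 and 1.52 against RH/+ vehicle, and Agt farthest to the left, at -1.002 in treated against RH/+ vehicle, while Edn1, Ednra and Ece1 lie close to 0.

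Edn3, the gene of the endothelin 3 precursor (chromosome 2, 174760619 to 174784042, plus strand, GRCm38), changed most among the 8 genes. Its level was 1.84 and 3.13 CPM in RH/+ vehicle, 14.1 and 14.6 CPM in RH/RQ vehicle and 10.4 and 7.41 CPM in treated hearts. No library of any group overlapped another group, and the RH/RQ vehicle libraries lay closest to each other. Behind these levels stood 70 to 721 reads per library. The difference of RH/RQ vehicle from RH/+ vehicle was 2.17 (SE 0.19) on the log2 scale with a limma adjusted p of 6.7e-08, and edgeR on reads gave 5.57-fold. In treated hearts it remained 1.52 (SE 0.19) above RH/+ vehicle, with a limma adjusted p of 2.68e-05 and 3.32-fold by edgeR.

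The log2 difference of Edn3 between treated and vehicle RH/RQ hearts was -0.65 (SE 0.19), with a limma adjusted p of 0.0846 that misses the threshold. On recovered reads edgeR gave 0.595 of the vehicle level with an adjusted p of 0.022, DESeq2 an adjusted p of 0.0306, and the authors' deposited table lists an adjusted p of 0.0155. The count tests thus called a fall in treated against vehicle RH/RQ hearts, and limma on CPM as deposited did not. Limma with TMM factors, which rescale for composition, also called it (adjusted p = 0.0378). Treatment cannot be told apart from sex in this fall. The adjusted p ranged from 0.022 to 0.524 over 17 alternatives, of which 10 called it.

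The rise of Edn3 went, among other lists, with genes that mark activated fibroblasts. Their 8 listed markers, among them Postn, Cilp and Thbs4, summed to between 73.0 and 79.2 CPM in RH/+ vehicle, 243 and 250 CPM in RH/RQ vehicle and 146 and 156 CPM in treated hearts. Of the 8 markers limma called 7 higher in RH/RQ vehicle against RH/+ vehicle, beside 3.48% of all genes. In treated against vehicle RH/RQ it called 4 lower and 0 higher, beside 0.827% and 1.22% of all genes. Limma also called 8 of 12 general fibroblast and 4 of 10 macrophage markers higher in RH/RQ vehicle against RH/+ vehicle. In treated against vehicle RH/RQ it called 3 and 0 of them lower. Macrophage marker sums were 245 to 253 CPM in RH/+ vehicle, 318 to 334 CPM in RH/RQ vehicle and 270 to 308 CPM in treated hearts. The markers were chosen with earlier results of these data known, so their movement with the groups is a description and no separate support. Markers of Schwann and glial cells, a lineage in which endothelin 3 acts, summed to 17.3 to 26.4 CPM, and none of the 7 was called in any comparison by limma, edgeR or DESeq2, with at most 1 at an unadjusted p under 0.05. The melanocyte genes Tyr and Tyrp1 were listed but not found by symbol among the 29385 genes. Of the 3 tested genes of that list limma, edgeR and DESeq2 called 0, with 0 at an unadjusted p under 0.05. The part of these cells in the level of Edn3 was not tested, and in bulk hearts fewer cells of a type and less RNA per cell cannot be told apart.

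**Figure D2:**
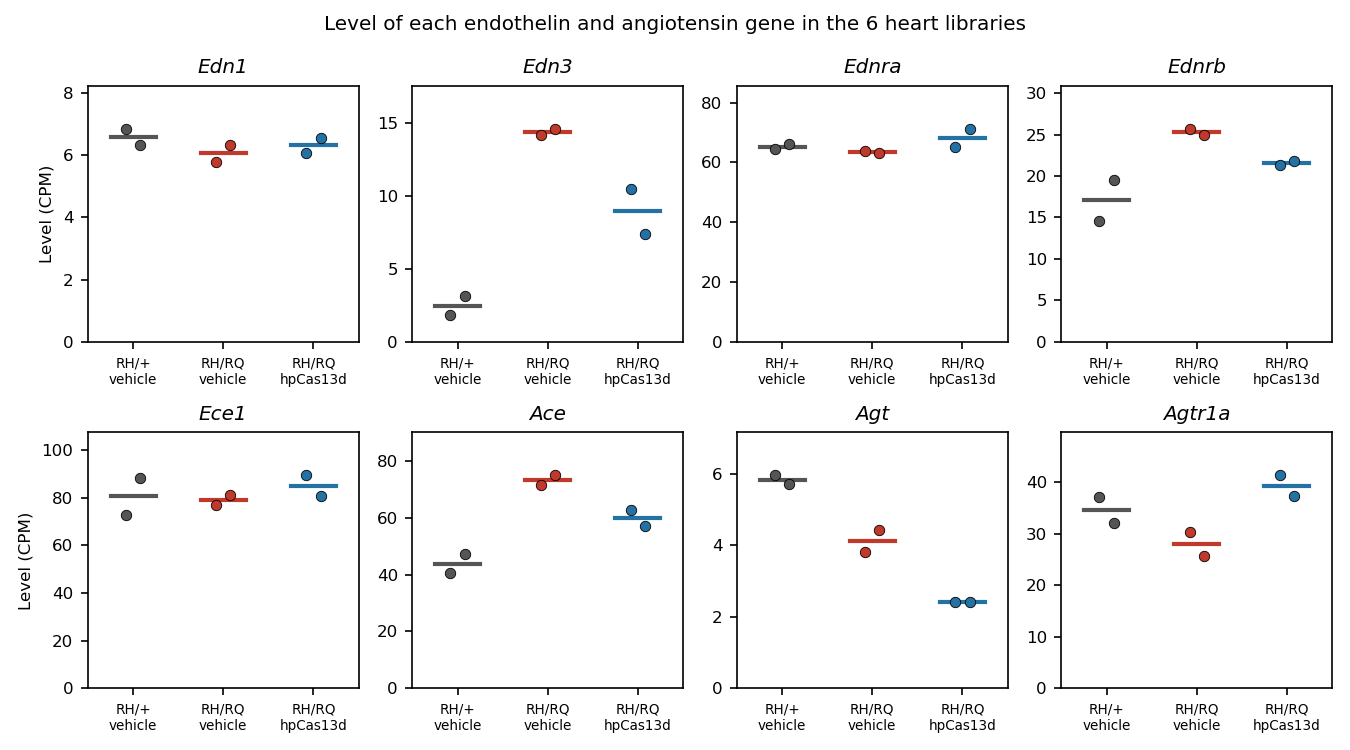
Level of each gene in CPM (y axis, from 0) in the 6 libraries, by group (x axis). Points are libraries and lines group means of 2. Edn3, Ednrb and Ace are lowest in RH/+ vehicle and highest in RH/RQ vehicle, Agt is highest in RH/+ vehicle and lowest in treated hearts, and Edn1 and Ece1 overlap between all groups.

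Edn1, the endothelin of endothelium (chromosome 13, 42301476 to 42307990, plus strand), had 6.85 and 6.31 CPM in RH/+ vehicle, 5.78 and 6.34 CPM in RH/RQ vehicle and 6.07 and 6.57 CPM in treated hearts. The 3 groups overlapped. The log2 difference of RH/RQ vehicle from RH/+ vehicle was -0.10, with a 95% interval of -0.44 to 0.23, and that of treated from vehicle RH/RQ was 0.05, with an interval of -0.28 to 0.39. These intervals leave out changes as large as that of Edn3 but not modest ones. Edn2, the gene of the remaining endothelin, had 3 libraries with 1 read and 3 with 0, below the filter.

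The make-up of endothelin RNA differed between the groups, since Edn3 moved and no change in Edn1 was called. Levels of different genes were compared per kilobase of merged exons in GENCODE M21. On that scale Edn3 made up 12.2% and 20.5% of the sum of Edn1 and Edn3 in RH/+ vehicle hearts. The share was 56.0% and 54.5% in RH/RQ vehicle and 47.3% and 37.0% in treated hearts. Only in the RH/RQ vehicle libraries was there more Edn3 than Edn1 per kilobase. These shares are a description with no test, and RNA shares need not match those of the peptides.

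**Figure D3:**
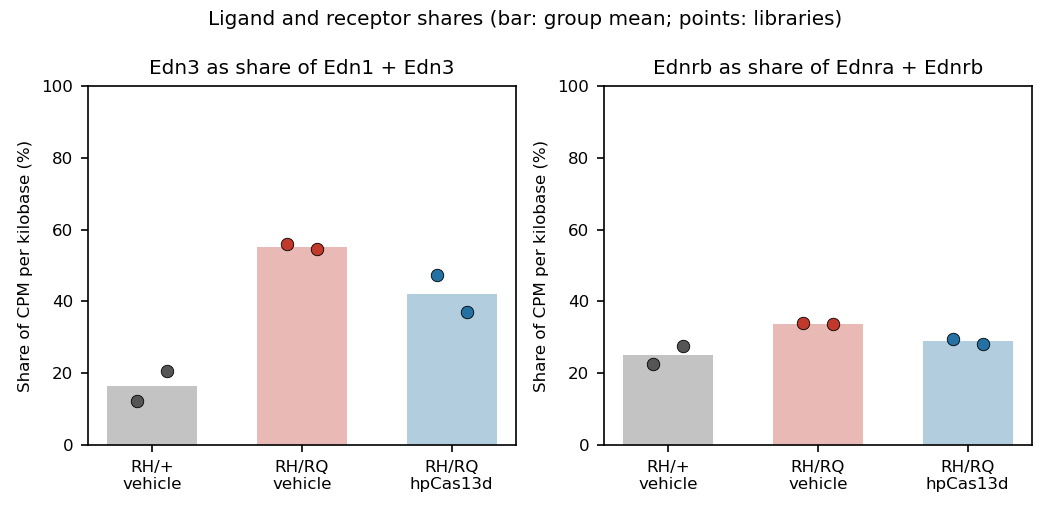
Edn3 as a percentage of Edn1 plus Edn3 (left) and Ednrb as a percentage of Ednra plus Ednrb (right), from CPM per kilobase. Bars are group means and points libraries. Edn3 passes 50% only in the 2 RH/RQ vehicle libraries, and Ednrb lies between 22.5% and 34.0% throughout.

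Ednrb, the B receptor (chromosome 14, 103814625 to 103844402, minus strand), rose in RH/RQ vehicle hearts. Its level was 14.6 and 19.5 CPM in RH/+ vehicle, 25.7 and 24.9 CPM in RH/RQ vehicle and 21.3 and 21.9 CPM in treated hearts. The groups did not overlap, and the RH/+ vehicle libraries were the farthest apart. The difference of RH/RQ vehicle from RH/+ vehicle was 0.56 (SE 0.13) on the log2 scale, or 1.44-fold by edgeR, with a limma adjusted p of 0.0124. Without RH/+ vehicle replicate 1 the difference was 0.36 (limma adjusted p = 0.39), and it was 0.54 when RH/RQ vehicle replicate 1 was left out (limma adjusted p = 0.0735). Treated hearts were not called against either group: the log2 difference was -0.22 (SE 0.13) from RH/RQ vehicle and 0.34 (SE 0.13) from RH/+ vehicle, with limma adjusted p of 0.526 and 0.209.

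Ednra, the A receptor (chromosome 8, 77663031 to 77724464, minus strand), was called in no comparison, at 64.5 and 66.1 CPM in RH/+ vehicle, 64.0 and 63.2 CPM in RH/RQ vehicle and 65.1 and 71.3 CPM in treated hearts. The RH/+ vehicle and treated libraries overlapped, and the RH/RQ vehicle libraries lay just below both. The 95% interval of the log2 difference was -0.24 to 0.16 for RH/RQ vehicle against RH/+ vehicle and -0.10 to 0.30 for treated against vehicle RH/RQ. Per kilobase Ednrb made up 22.5% and 27.5% of the sum of both receptors in RH/+ vehicle hearts. The share was 34.0% and 33.6% in RH/RQ vehicle and 29.6% and 28.2% in treated hearts, so Ednra stayed the more abundant receptor RNA in all 6 libraries.

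Ece1, the converting enzyme (chromosome 4, 137862237 to 137965229, plus strand), was the most abundant of the 8 genes per kilobase. Its level was 72.6 and 88.4 CPM in RH/+ vehicle, 77.03 and 81.2 CPM in RH/RQ vehicle and 89.4 and 80.6 CPM in treated hearts. All groups overlapped, and the spread within RH/+ vehicle was wider than any difference between group means. The log2 difference was -0.02 for RH/RQ vehicle against RH/+ vehicle (95% interval -0.23 to 0.20), 0.10 for treated against vehicle RH/RQ and 0.08 for treated against RH/+ vehicle. The lowest of their limma adjusted p was 0.756.

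In the angiotensin system the group means of the substrate, the enzyme and the receptor each followed a different order. Limma did not call every step of these orders. Agt, the gene of angiotensinogen (chromosome 8, 124556534 to 124569706, minus strand), was highest in RH/+ vehicle hearts at 5.96 and 5.71 CPM. It was at 3.80 and 4.43 CPM in RH/RQ vehicle and at 2.43 and 2.40 CPM in treated hearts, with 88 to 228 reads per library. The groups did not overlap, and the treated libraries were nearly equal. Treated hearts differed from RH/+ vehicle by -1.002 (SE 0.17) on the log2 scale, with a limma adjusted p of 0.00115. On reads, edgeR gave 0.384 of the RH/+ vehicle level, a larger change than the log2(CPM + 1) scale shows for so low a gene.

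The steps between neighbouring groups were less firm for Agt. RH/RQ vehicle differed from RH/+ vehicle by -0.42 (SE 0.17) with a limma adjusted p of 0.193, and none of the 17 alternatives called it. Treated differed from vehicle RH/RQ hearts by -0.58 (SE 0.17) with a limma adjusted p of 0.0936, while edgeR gave 0.564 of the vehicle level and an adjusted p of 0.0356. The authors' deposited table lists an adjusted p of 0.247 for that step. Hepatocyte genes were near 0: the 4 analysed summed to between 0.255 and 1.21 CPM, and the one tested, Ttr, rose in treated hearts by limma, opposite to Agt, though edgeR and DESeq2 did not call it. The 8 adipocyte genes, which mark another tissue that makes angiotensinogen, summed to 484 to 558 CPM in RH/+ vehicle, 466 to 602 CPM in RH/RQ vehicle and 494 to 600 CPM in treated hearts, most of it from Fabp4, which endothelium also expresses. Of the 4 tested, limma called Plin1 and Car3 lower in RH/RQ vehicle and Car3 lower in treated hearts than in RH/+ vehicle, and called neither Fabp4 nor Cidea. DESeq2 called 1 and 0 of the 4 lower in these comparisons, and edgeR 2 and 2. The shares of all genes called lower were 1.51% and 0.53% by limma and 2.34% and 0.97% by edgeR. RH/+ vehicle replicates 1 and 2 were far apart, at 0.866 and 7.34 CPM for Car3 and 0.263 and 1.10 CPM for Plin1. Adipoq, under the filter, had 0.184 and 0.752 CPM in RH/+ vehicle and at most 1 read in any other library. The part of adipose tissue in the level of Agt was not tested.

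Ace, the converting enzyme (chromosome 11, 105967945 to 105989964, plus strand), rose in RH/RQ vehicle hearts. Its level was 40.5 and 47.3 CPM in RH/+ vehicle, 71.4 and 74.9 CPM in RH/RQ vehicle and 62.5 and 56.9 CPM in treated hearts. The groups did not overlap, and treated hearts lay between the others. RH/RQ vehicle exceeded RH/+ vehicle by 0.73 (SE 0.10) on the log2 scale, or 1.62-fold by edgeR, with a limma adjusted p of 6.59e-05. Treated hearts differed from vehicle RH/RQ hearts by -0.29 (SE 0.10), which was not called by limma (adjusted p = 0.196), edgeR (adjusted p = 0.0832) or DESeq2 (adjusted p = 0.0722).

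The excess of Ace in treated hearts over RH/+ vehicle was 0.44 (SE 0.10) with a limma adjusted p of 0.018. It depended on scaling and on single libraries. The log2 difference was 0.34 by edgeR (adjusted p = 0.105), 0.33 without RH/+ vehicle replicate 1 (limma adjusted p = 0.398) and 0.37 without treated replicate 1 (limma adjusted p = 0.113). The 12 listed endothelial markers, which include Pecam1 and Cdh5 and mark the cells that usually carry this enzyme, summed to 1240 to 1310 CPM in RH/+ vehicle, 1328 to 1422 CPM in RH/RQ vehicle and 1253 to 1357 CPM in treated hearts. Limma, edgeR and DESeq2 called 0 of the 12 in RH/RQ vehicle against RH/+ vehicle, with 3 at an unadjusted p under 0.05 and a median log2 difference of 0.11. For Cldn5, higher there, the authors' deposited table lists an adjusted p of 0.00999. In treated against vehicle RH/RQ limma called 1 of the 12, Cldn5, lower, edgeR 1 and DESeq2 2, and each called 0 higher. The shares of all genes called lower were 0.827%, 1.19% and 1.15%. Of macrophage markers 4 of 10 rose by limma in RH/RQ vehicle against RH/+ vehicle, beside 3.48% of all genes. The activated fibroblast sums given with Edn3 followed the same order of groups as Ace. The part of these cells in the level of Ace was not tested.

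Agtr1a, the receptor of angiotensin II (chromosome 13, 30336441 to 30382867, plus strand), was the only one of the 8 that limma called with treatment in RH/RQ hearts. Its level was 37.2 and 32.0 CPM in RH/+ vehicle, 30.3 and 25.8 CPM in RH/RQ vehicle and 41.4 and 37.3 CPM in treated hearts. The RH/RQ vehicle libraries, the only ones with a male pattern, were the lowest of the 6. The gap between RH/+ vehicle and treated libraries was small. Treatment cannot be told apart from sex between the RH/RQ groups. Treated exceeded vehicle RH/RQ hearts by 0.48 (SE 0.12) on the log2 scale, or 1.35-fold by edgeR, with a limma adjusted p of 0.0286. The limma adjusted p was 0.431 without RH/RQ vehicle replicate 2, 0.182 without treated replicate 1, and 0.0537 on CPM over nuclear genes. The authors' deposited table lists an adjusted p of 0.0656.

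Against RH/+ vehicle the log2 difference of Agtr1a was -0.29 (SE 0.12) in RH/RQ vehicle (limma adjusted p = 0.172) and 0.18 (SE 0.12) in treated hearts (limma adjusted p = 0.49), so neither passed. The near-identical Agtr1b had 1 read in a single library, and Agtr2, the gene of the second type of angiotensin receptor on the X chromosome, likewise 1 read. Marker sums of pericytes and smooth muscle, which carry this receptor, were 2908 to 3053 CPM in RH/+ vehicle, 2597 to 2717 CPM in RH/RQ vehicle and 2972 to 3120 CPM in treated hearts, the lowest in RH/RQ vehicle. Much of each sum was Des, which heart muscle also expresses: the other 11 markers summed to 1471 to 1494, 1226 to 1280 and 1246 to 1374 CPM, so that the RH/RQ groups overlapped. Acta2 had means of 216 ± 36.2, 84.7 ± 18.8 and 74.8 ± 1.92 CPM (SD, n = 2 each) in the same order of groups. Limma, edgeR and DESeq2 called it lower in both RH/RQ groups than in RH/+ vehicle. The levels of Acta2 overlapped between vehicle and treated RH/RQ hearts, and none of these tests called it between them. Abcc9 was called lower by limma in RH/RQ vehicle than in RH/+ vehicle, and limma alone called it higher in treated than in vehicle RH/RQ hearts. In RH/RQ vehicle against RH/+ vehicle limma called 2 of the 12 listed markers, Abcc9 and Acta2, lower and 0 higher. The shares of all genes were 1.51% and 3.48%. The log2 differences of the 12 ran from -1.35 to 0.435, with a median of 0.039 beside 0.038 for all genes. The fibroblast marker sums were higher in both RH/RQ groups, at 3396 to 3578 CPM with vehicle and 3545 to 4138 CPM with treatment, than in RH/+ vehicle at 2393 to 2836 CPM. Much of each sum was Gsn, at 1278 and 1628 CPM in RH/+ vehicle, 1603 and 1550 CPM in RH/RQ vehicle and 2267 and 1934 CPM in treated hearts. In treated against vehicle RH/RQ limma called 3 of the 12 fibroblast markers, Col1a1, Col1a2 and Col3a1, lower and 0 higher, beside 0.827% and 1.22% of all genes. The part of pericytes, smooth muscle and fibroblasts in the level of Agtr1a was not tested.

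Set side by side per kilobase of merged exons, the 8 genes fell into an upper and a lower set. Averaged over the 6 libraries, Ece1 stood at 15.4, Agtr1a at 12.2, Ednra at 12.0, Ace at 11.1, Ednrb at 4.997, Edn1 at 2.95, Agt at 2.18 and Edn3 at 2.09 CPM per kilobase. The middle of this order changed with the group. In RH/+ vehicle hearts Ace, at 8.30 ± 0.905 CPM per kilobase, lay below Ednra at 11.9 ± 0.198, and in RH/RQ vehicle hearts it lay above, at 13.8 ± 0.467 against 11.6 ± 0.104 (SD, n = 2 each). Edn3 was the lowest of the 8 in RH/+ vehicle, at 0.604 ± 0.222 CPM per kilobase, and in treated hearts the lowest was Agt, at 1.28 ± 0.0101 (SD, n = 2 each). Agtr1a and Ednra overlapped in RH/+ vehicle hearts, whereas Agtr1a was the lower in RH/RQ vehicle and the higher in treated hearts.

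Genes whose levels ran most like those of the called members were sought among 12285 other tested genes of at least 1 CPM. Likeness was Pearson's r of log2(CPM + 1) over the 6 libraries, which share 3 groups, so many genes come close: 190 genes reached 0.95 with Edn3, 161 with Ace, 93 with Ednrb, 78 with Agtr1a and 14 with Agt. Closest to Edn3 were Ino80 (0.998), Sh3pxd2b (0.9965) and Thbs1 (0.995). Closest to Ace were Sh3pxd2b (0.997), Coa7 (0.996) and Col15a1 (0.994). Sh3pxd2b, on both lists, had 6.54 and 8.42 CPM in RH/+ vehicle, 16.4 and 16.7 CPM in RH/RQ vehicle and 13.8 and 11.3 CPM in treated hearts. Ednrb ran most like Ptafr (0.997), Masp1 (0.992) and Wdr62 (0.989), Agt like Abhd14a (0.995), Slc2a12 (0.988) and Slc25a20 (0.9855), and Agtr1a like Atg10 (0.998), Rpl22l1 (0.995) and Pcolce2 (0.994). These values are descriptions and say nothing of shared function.

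Around the 8 genes, 67 further symbols of the pathways were listed, of which 46 passed the filter. In RH/RQ vehicle against RH/+ vehicle 3 of the 46 rose and 0 fell, beside 3.48% and 1.51% of all genes, with a median log2 difference of 0.09. In treated against vehicle RH/RQ 0 rose and 1 fell, beside 1.22% and 0.827% of all genes, with a median of -0.003. In treated against RH/+ vehicle 2 rose and 1 fell, beside 2.33% and 0.53% of all genes, with a median of 0.075. On reads edgeR called 4 and 1, 0 and 3, and 1 and 2 of the 46 higher and lower. Its shares of all genes were 3.12% and 2.34%, 1.08% and 1.19%, and 1.48% and 0.97%. Whether these small counts differ from the shares of all genes was not tested. Ren1, the gene of renin, was listed but not found by symbol among the 29385 genes.

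Mme, the gene of neprilysin (chromosome 3, 63241537 to 63386030), a membrane peptidase that degrades endothelin, angiotensin and natriuretic peptides, was the tested gene of the other endothelin list. Its level was 11.8 and 13.2 CPM in RH/+ vehicle, 10.1 and 11.3 CPM in RH/RQ vehicle and 5.49 and 5.59 CPM in treated hearts. The treated libraries were the lowest, and no treated library overlapped the other groups. Mme fell by 0.83 (SE 0.15) on the log2 scale in treated against vehicle RH/RQ hearts (limma adjusted p = 0.00233). The log2 difference from RH/+ vehicle was -1.05 (SE 0.15; limma adjusted p = 0.00015). On reads edgeR gave 0.499 and 0.411 of the levels in the RH/RQ vehicle and RH/+ vehicle groups. Both calls were lost only with no filter on low genes, as was that of Prkca in treated against RH/+ vehicle hearts.

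Among the 15 tested genes of the renin and angiotensin list, which include other peptidases of angiotensin and the receptor Mas1, limma called 0 in each of the 3 comparisons, with 2, 2 and 1 at an unadjusted p under 0.05. DESeq2 called 0 as well, and edgeR called 1, Enpep, in RH/RQ vehicle against RH/+ vehicle. Enpep, the aminopeptidase that turns angiotensin II into angiotensin III, had 9.98 and 10.5 CPM in RH/+ vehicle, 14.6 and 14.3 CPM in RH/RQ vehicle and 13.1 and 11.3 CPM in treated hearts. Its log2 difference of RH/RQ vehicle from RH/+ vehicle was 0.46 (SE 0.14), with an adjusted p of 0.0591 by limma and 0.048 by edgeR. The authors' deposited table lists an adjusted p of 0.077 for it. Nln, neurolysin, differed by 0.38 (SE 0.12) in the same comparison, with a limma adjusted p of 0.0763.

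Of the 5 tested genes of the mineralocorticoid and kinin list, Hsd11b1 rose in RH/RQ vehicle hearts and Sgk1 was higher in treated than in RH/+ vehicle hearts by limma, which called 0 lower. The count tests also called Nr3c2, the mineralocorticoid receptor, lower in RH/RQ vehicle than in RH/+ vehicle. Its adjusted p was 0.0439 by edgeR, 0.0446 by DESeq2 and 0.115 by limma, and 0.0508 in the authors' deposited table. Hsd11b1, which regenerates active glucocorticoid, had 17.1 and 14.5 CPM in RH/+ vehicle, 28.2 and 21.7 CPM in RH/RQ vehicle and 19.8 and 12.3 CPM in treated hearts. Its rise was 0.62 (SE 0.17) with a limma adjusted p of 0.0309, which became 0.289 when RH/RQ vehicle replicate 1 was left out and 0.177 when RH/+ vehicle replicate 2 was. In treated against vehicle RH/RQ hearts its log2 difference was -0.63 (SE 0.17), with an adjusted p of 0.0509 by limma, 0.0122 by edgeR and 0.0132 by DESeq2, and of 0.032 in the authors' deposited table. Sgk1, a kinase induced by corticosteroids, exceeded RH/+ vehicle in treated hearts by 0.46 (SE 0.11; limma adjusted p = 0.0194). Its adjusted p was 0.0776 by edgeR, 0.135 by limma without RH/+ vehicle replicate 2 and 0.198 by limma without treated replicate 1.

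Downstream of the receptors, 25 genes of Gq and beta-arrestin coupling were tested. Plcb1, a phospholipase C driven by Gq, had 7.19 and 6.01 CPM in RH/+ vehicle, 11.7 and 10.6 CPM in RH/RQ vehicle and 8.05 and 9.65 CPM in treated hearts. It rose in RH/RQ vehicle by 0.68 (SE 0.16; limma adjusted p = 0.0107). That call was lost without RH/+ vehicle replicate 2 (limma adjusted p = 0.146) or RH/RQ vehicle replicate 1 (limma adjusted p = 0.102). Prkca, protein kinase C alpha, had 26.8 and 27.2 CPM in RH/+ vehicle, 34.6 and 39.1 CPM in RH/RQ vehicle and 40.9 and 40.3 CPM in treated hearts, so that both RH/RQ groups lay above RH/+ vehicle. Its difference from RH/+ vehicle was 0.57 (SE 0.11) in treated hearts, with a limma adjusted p of 0.00277. In RH/RQ vehicle it was 0.43 (SE 0.11; limma adjusted p = 0.0169), and limma gave adjusted p of 0.156, 0.0972 and 0.23 without RH/+ vehicle replicate 1, RH/+ vehicle replicate 2 or RH/RQ vehicle replicate 2. The count tests alone called Rgs4, a regulator that dampens G protein signals, lower in treated than in vehicle RH/RQ hearts (adjusted p = 0.0122 by edgeR and 0.0651 by limma), and Prkce, protein kinase C epsilon, lower in treated than in RH/+ vehicle hearts (adjusted p = 0.0379 by edgeR and 0.149 by limma). The G protein genes Gnaq, Gna11, Gna12 and Gna13 were not called by limma in any comparison.

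**Figure D4:**
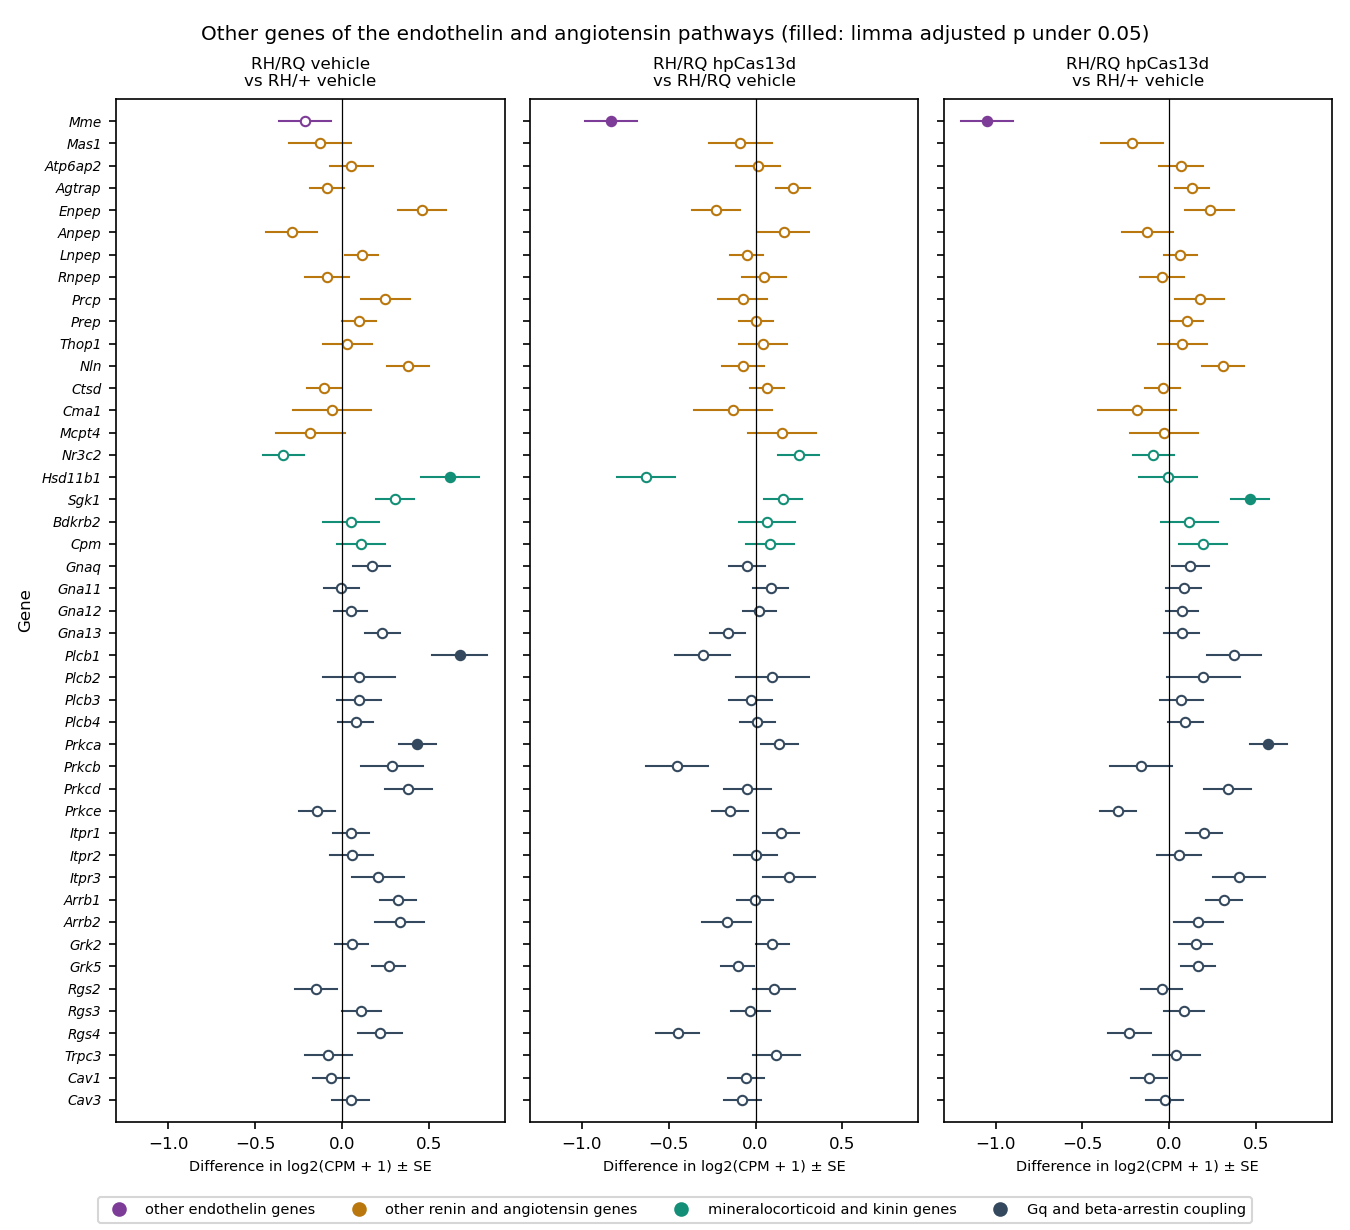
Difference in log2(CPM + 1) with standard error (x axis) for 45 of the 46 tested genes of the 4 other pathway lists (rows, coloured by list) in the 3 comparisons (panels). Filled points have a limma adjusted p under 0.05. Mme is the only filled point to the left of 0, at -0.83 and -1.05, and Plcb1, Prkca, Hsd11b1 and Sgk1 are the filled points to the right.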

How the data were processed

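The samples were grouped by the genotype and treatment in the labels. HISAT2, HTSeq, DESeq2 and mm10 are named in the submitters' processing notes, and their versions and roles, the annotation and the strand setting are not given in the sources used here. The authors deposited CPM in 3 full tables of 4 libraries each, which were joined over 6 libraries and 29385 genes. A gene missing from a table was set to 0. Per the file headers, the same deposited tables hold a mean signal of normalised counts, log2 fold changes with standard errors, a test score and p-values. Of these, only adjusted p-values are quoted as the authors' own. Every CPM value was a whole multiple of 1 read (100% within a tolerance of 0.001), which gave back the read counts.

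Genes were kept by filterByExpr at a minimum count of 10 (16804 genes). limma 3.58.1 (R 4.3.3) with a trend was run on log2(CPM + 1) over all 6 libraries, two-sided, with Benjamini-Hochberg adjustment over all tested genes and calls under 0.05. Because the comparisons share libraries, they share error. Fold changes on this scale understate those of low genes. edgeR 4.0.16 (quasi-likelihood, TMM factors between 0.96 and 1.06) and DESeq2 1.42.0 on recovered reads were alternatives, with other scalings, filters, pseudocounts (0.1 and 5), a replicate block and leaving out each library. The tests were also run on simulated reads, with the same spread for every gene and no effect of sex. That check does not show how they perform on these data. The 8 genes, the pathway lists and the marker lists were chosen with earlier results of these data known. Named pathway genes are those called in any comparison, or else the 3 of a list with the smallest p, of which 1 is not reported here; Nr3c2, Rgs4 and Prkce, called by count tests alone, were added after their values were seen. Coordinates and exon lengths are those of GENCODE M21 (GRCm38), and start regions those of RefSeq, which matched 7 of the 8 genes. Antisense genes overlapping Edn1, Ece1 and Ace had at most 0.0551 CPM. The intronic transcript Gm48161 in Agtr1a had at most 0.633 CPM.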

Additional observations from a re-analysis of the deposited data

How the results depend on the processing

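Over 17 alternatives, of which CPM over nuclear genes was chosen after seeing the data, the number of the 8 genes called in RH/RQ vehicle against RH/+ vehicle was 3, except 1 with no filter on low genes and 2 to 3 when 1 library was left out. For treated against RH/+ vehicle it was 2 or 3, except 0 with no filter, and leaving out a library gave 2 to 3. For treated against vehicle RH/RQ the single call became 3 with edgeR, DESeq2, TMM or RLE factors, 2 in the 4 libraries alone, with a replicate block on the first digit of the sample titles or on CPM over nuclear genes, 0 with no filter, and 0 to 2 when a library was left out. The titles' digits are not said to pair samples: the within-group differences correlated over genes at 0.18, -0.03 and 0.09 between the groups. The block added Edn3 to the calls of that comparison and changed no other call among the 8. Where a sign changed, neither value was called, and the cause was not tested. Ece1 in RH/RQ vehicle against RH/+ vehicle was 0.014 on CPM over nuclear genes and -0.16 to 0.12 with a library left out. Edn1 in treated against vehicle RH/RQ was -0.0031 on CPM over nuclear genes and -0.0060 to 0.11 with a library left out. In treated against RH/+ vehicle, edgeR, DESeq2, TMM and RLE gave -0.042, -0.044, -0.044 and -0.046 for Ednra and -0.028, -0.031, -0.022 and -0.024 for Ece1, and leaving out a library gave -0.0043 to 0.13 and -0.057 to 0.22. Hsd11b1 in that comparison was -0.33 to 0.31 with a library left out. Where a group was left with 1 library, it was assumed to vary like the others. The depth of Edn3, Agt and Edn1 limits what could be detected there.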
